A study of Mus musculus with 10 samples.

Results

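Eph receptors and ephrins, Slits and Robos, and netrins with their receptors are among the main families of contact and secreted guidance cues. Here 37 of their genes were followed across 4 sorted cell populations. The genes were found by symbol in GENCODE M21 through the stable Ensembl identifier of each row, and all 37 were present among the 38924 genes counted. They comprised 9 EphA receptors, 5 EphB receptors, 5 ephrin-A ligands, 3 ephrin-B ligands, 7 Slits and Robos, and 8 netrins and netrin receptors, or 13 ligands and 24 receptors. All RNA came from Foxa2-hCD4 mouse embryonic stem cells (mESCs), a single line in which a truncated human CD4 made from the Foxa2 locus lets living cells be sorted by Foxa2 expression. Foxa2+ CM (cardiac mesoderm, n = 3) and Foxa2- CM (n = 3) were the hCD4+ and hCD4- parts of cells carrying both Kdr and Pdgfra in cardiac differentiation cultures. The Flk1+ high samples (n = 2) came from the same kind of culture and were gated on Kdr (another name for Flk1) as haematopoietic mesoderm. That kind of culture received vascular endothelial growth factor, Bmp4 and Activin A. The endoderm samples (n = 2) came from separate cultures with a high level of Activin A alone and were sorted as hCD4+ cells without Pdgfra or Kdr, so medium and cell type cannot be told apart in any comparison with endoderm. The labels do not say that the samples of a group came from separate cultures, so the p-values measure the spread between these samples, which may be technical.

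Eph receptors are receptor tyrosine kinases and ephrins are their membrane-bound ligands. EphA receptors mostly bind the lipid-anchored ephrin-A proteins and EphB receptors the transmembrane ephrin-B proteins, and contact between cells signals into both of them. Slits are secreted proteins that bind Robo receptors and usually repel moving cells. Netrins are secreted, laminin-related proteins that attract through Dcc and neogenin (Neo1) and repel through the Unc5 receptors. All of these families were first known from growing axons, and they also act in gastrulation, in blood vessels and in the forming heart, where Ephb4 and Efnb2 are used to tell venous from arterial endothelium.

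Of the 37 genes, 32 had at least 1 entry in a RefSeq table of promoter windows (build GRCm38.p6, the mm10 assembly), with 37 windows in all. Efnb3, Slit1, Ntn1, Unc5d and Dcc were not among them. The 250 bases before the start of 4 genes are given, 5′ to 3′ on the strand of the gene. The starts are those of RefSeq. Ephb2 and Unc5a are shown because they were the only genes of the set called between the CM groups in every fit run, and Unc5c and Robo4 because they set endoderm and Flk1+ high apart from other groups. The windows lie at chr4:136836013-136836262 on the minus strand for Ephb2, chr13:54949161-54949410 on the plus strand for Unc5a, chr3:141465314-141465563 on the plus strand for Unc5c and chr9:37401722-37401971 on the plus strand for Robo4. These choices were made after the values were seen. Capitals mark every match, on either strand, to 1 of 6 motifs.
Ephb2: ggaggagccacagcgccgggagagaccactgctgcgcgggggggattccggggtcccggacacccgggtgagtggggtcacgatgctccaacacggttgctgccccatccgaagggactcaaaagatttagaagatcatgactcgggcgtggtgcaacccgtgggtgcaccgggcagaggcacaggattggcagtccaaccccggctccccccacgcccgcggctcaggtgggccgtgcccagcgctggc
Unc5a: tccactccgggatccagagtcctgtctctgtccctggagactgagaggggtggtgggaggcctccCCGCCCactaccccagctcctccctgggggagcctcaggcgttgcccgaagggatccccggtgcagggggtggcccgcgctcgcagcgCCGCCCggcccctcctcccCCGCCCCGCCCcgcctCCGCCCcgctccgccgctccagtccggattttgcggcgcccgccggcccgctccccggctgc
Unc5c: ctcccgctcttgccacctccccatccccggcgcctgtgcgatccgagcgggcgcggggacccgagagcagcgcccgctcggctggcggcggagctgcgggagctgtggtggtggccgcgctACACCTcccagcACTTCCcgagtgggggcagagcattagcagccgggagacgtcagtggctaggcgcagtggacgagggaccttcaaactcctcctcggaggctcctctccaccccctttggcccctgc
Robo4: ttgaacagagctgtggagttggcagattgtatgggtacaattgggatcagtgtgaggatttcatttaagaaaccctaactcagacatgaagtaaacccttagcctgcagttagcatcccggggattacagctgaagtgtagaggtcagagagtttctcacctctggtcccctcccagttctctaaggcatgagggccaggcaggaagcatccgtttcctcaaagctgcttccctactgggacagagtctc
The GC box, searched as GGGCGG, was found in 26 of the 37 windows of these genes (70.3%) and in 32.7% of all 32851 windows. The Unc5a window held 5 of them, all read on the opposite strand, of which 2 share a base. The letters TGTTTAC, bound by FOXA factors such as Foxa2, were in 0 of the 37 windows and in 3.17% of all windows. The letters AGATAA, bound by GATA factors, were in 3 windows (Epha3, Efna4 and Robo2) and in 9.99% of all windows. For T-box factors the letters searched were AGGTGT, found in 2 windows and in 11.8% of all windows. For ETS factors they were GGAAGT, found in 5 windows and in 19.7% of all windows. The Unc5c window held 1 match of each of these last kinds, both on the opposite strand. The TATA box, searched as TATAAA, was in 2 windows and in 12.4% of all windows. Neither the Ephb2 nor the Robo4 window held any of the 6 motifs. These matches are descriptions of letters in short windows and were not tested as binding sites.

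Several of the genes are neighbours. Efna1, Efna3 and Efna4 lie on the same strand of chromosome 3, with 32756 bases between Efna1 and Efna3 and 10424 bases between Efna3 and Efna4. Epha8 and Ephb2 lie 93430 bases apart on chromosome 4. Robo4 and Robo3 face each other on chromosome 9 with 553 bases between their ends. Exons of 9 of the 37 genes overlap exons of another gene on the opposite strand, by 14.1% of the exonic bases of Efna3, 10.5% of Efna4, 6.01% of Epha1 and at most 2.17% of the other 6. Whether the counting used strand is not given in the sources used here, so reads in those stretches cannot be told apart.

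Reads on genes totalled between 10926284 and 17470126 per sample. Levels are given in CPM, counts relative to library size after TMM scaling, on which 3 counts, taken as the floor of detection, stood at 0.169 to 0.280 CPM depending on the sample. The floor covers counting error alone, because reads without molecular identifiers are not independent molecules. Foxa2 itself stood at 20.03, 16.0 and 3.50 CPM in Foxa2+ CM, at 2.54, 0.873 and 0.903 in Foxa2- CM, at 186 and 183 in endoderm and at 0.690 and 0.788 in Flk1+ high, so the third Foxa2+ CM sample lay close to the Foxa2- CM samples. Summed definitive endoderm markers (7 genes) stood at 1171 and 1270 CPM in endoderm and at 72.4 to 238 in the other samples, and summed haematopoietic and endothelial markers (8 genes) at 1226 and 1542 in Flk1+ high, 289 to 507 in CM and 45.9 and 92.7 in endoderm. Summed CM markers (7 genes) stood at 1048 to 1410.4 in CM, 739 and 939 in Flk1+ high and 129.5 and 217 in endoderm. Each of these sums was highest in the group it names, but the lists include Foxa2, Kdr and Pdgfra, the genes behind the sort. Single markers could differ, since by group mean Kdr was highest in Flk1+ high (574 CPM), Cxcr4 in Foxa2- CM (105) and Etv2 in Foxa2+ CM (109). Pdgfra and Gata4 RNA were nevertheless present in endoderm, at 49.9 and 71.6 and at 60.2 and 122 CPM. In these bulk samples, fewer cells of a type and less RNA per cell cannot be told apart.

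Most of the genes were expressed in every population. Between 28 and 33 of the 37 reached 1 CPM in a sample and between 16 and 25 reached 10 CPM. Dcc, the attractive netrin receptor, had 0 counts in all 6 CM samples and at most 2 in any sample, and Epha6 had 0 counts in 9 samples and 1 in the other. At 0 counts these depths allow up to the floor given above, so a lower level was not detectable. Epha5 did not pass 0.929 CPM in any sample, and Epha10 ran from 0.158 to 1.18 CPM and was not called in any comparison. Neo1, the Dcc relative, was by contrast present throughout, with group means of 114 ± 9.63 CPM in Foxa2+ CM (SD, n = 3), 118 ± 3.68 in Foxa2- CM (n = 3), 175 ± 22.9 in endoderm (n = 2) and 106 ± 34.0 in Flk1+ high (n = 2).

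**Figure D1:**
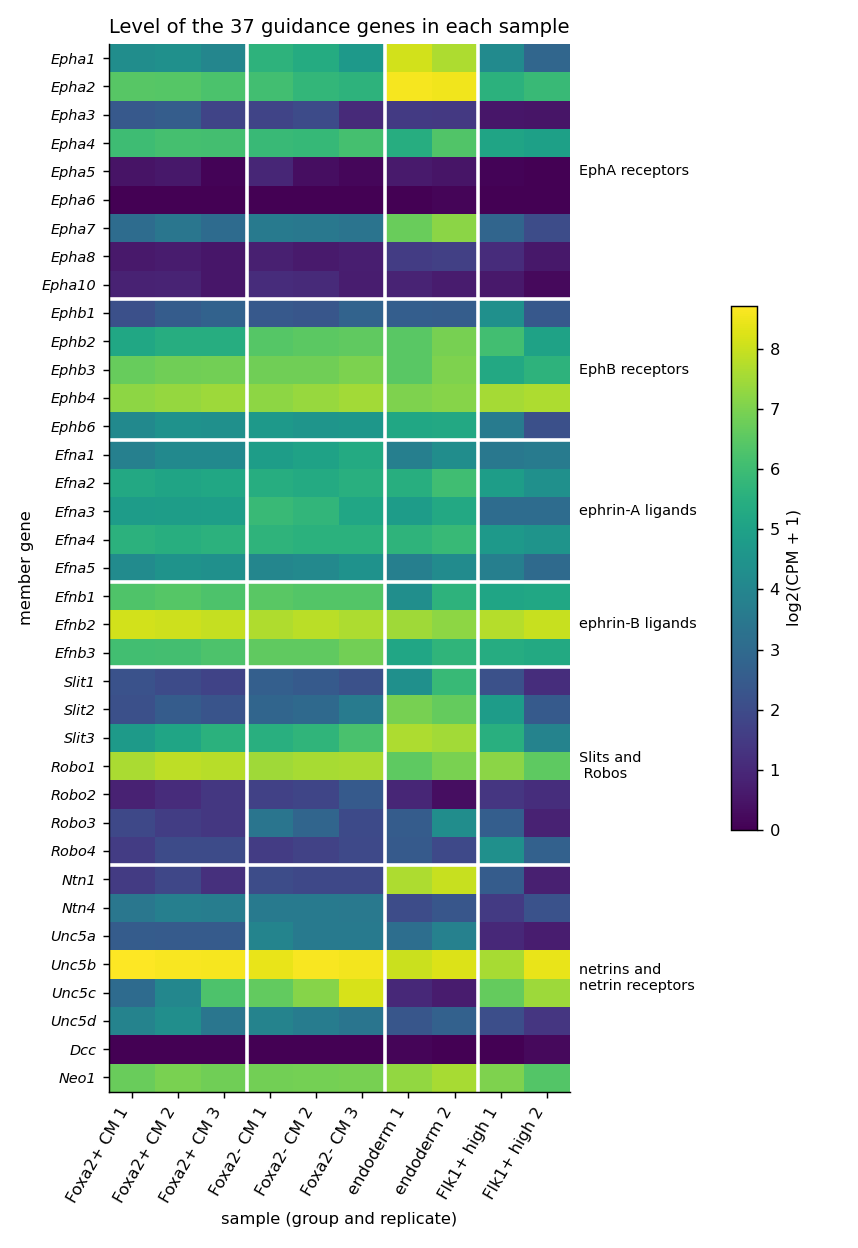
Level of each of the 37 genes (rows, grouped by class) in each of the 10 samples (columns), as log2(CPM + 1), with brighter colours for higher levels. Epha1, Epha7, Slit1, Slit2, Slit3 and Ntn1 were brighter in both endoderm samples than in the other 8, Unc5c was dark in endoderm, and Dcc and Epha6 were at or near 0 throughout.

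Genes were compared with each other only per kilobase of exon. On that scale Unc5b led the netrin class in every group, at mean levels of 64.5 CPM per kilobase in Foxa2+ CM, 60.04 in Foxa2- CM, 44.8 in endoderm and 42.9 in Flk1+ high. Its CPM were 421, 401 and 389 in Foxa2+ CM, 347, 399 and 381 in Foxa2- CM, 257 and 303 in endoderm and 191 and 346 in Flk1+ high, and it was not called in any comparison. Ephb4 led the EphB receptors with 149, 161 and 172 CPM in Foxa2+ CM, 149.7, 165 and 181 in Foxa2- CM, 129.8 and 139.9 in endoderm and 184 and 199.6 in Flk1+ high, or between 29.1 and 41.3 CPM per kilobase by group. Among the ephrin-A ligands Efna4 was highest per kilobase in all 4 groups, with 47.3, 43.3 and 47.5 CPM in Foxa2+ CM, 49.7, 46.4 and 46.8 in Foxa2- CM, 50.4 and 57.8 in endoderm and 25.2 and 21.8 in Flk1+ high. These leaders were steady between the CM groups, whose samples overlapped for all 3 genes. Duplicate reads were removed before counting, which caps counts at high density and can shrink differences. Unc5b had the highest density of the set, at 1.11 counts per exonic base in Foxa2+ CM replicate 2. The size of this effect was not tested. Epha2 led the EphA receptors, with group means of 17.7, 12.05, 80.6 and 11.4 CPM per kilobase in the order above. In Foxa2- CM its lead over Epha1 was within the spread (12.05 ± 2.09 against 9.65 ± 2.99, SD, n = 3), although Epha2 was the higher in every sample. Among the Slits and Robos, Robo1 led in Foxa2+ CM, at 13.1 CPM per kilobase, and Slit3 in endoderm, at 31.3. In Foxa2- CM Robo1 (11.4 ± 0.677, SD, n = 3) and Slit3 (9.30 ± 2.59) did not differ beyond their spread. Nor did they in Flk1+ high (7.24 ± 2.21 and 4.75 ± 3.49, SD, n = 2), although Robo1 was the higher in both Flk1+ high samples. Efnb2 led the ephrin-B ligands at 38.2, 23.7 and 33.8 CPM per kilobase in Foxa2+ CM, endoderm and Flk1+ high, whereas in Foxa2- CM Efnb3 (31.8 ± 3.49, SD, n = 3) and Efnb2 (30.5 ± 1.93) did not differ beyond their spread.

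The make-up of the set in endoderm stood apart in the shares of the EphA receptors and the ephrin-B ligands. EphA receptors held 31.8% of the summed CPM per kilobase in endoderm (28.6% and 35.1% in the 2 samples), against means of 9.11% in Foxa2+ CM, 7.94% in Foxa2- CM and 7.68% in Flk1+ high. Ephrin-B ligands held 9.11% in endoderm and between 22.2% and 23.8% in the other groups. Shares must add to the whole, so a rise in 1 class lowers the others. The summed level of EphA receptors moved too, to 163 CPM per kilobase in endoderm against 19.1 to 32.0 in the other groups. Summed ephrin-B ligands, at 41.9 and 52.3 in endoderm, lay close to the 53.9 and 59.0 of Flk1+ high. Both groups were below the CM samples (82.7 to 88.9). With the length of the longest transcript in place of all exons, EphA receptors held 33.2% in endoderm and between 7.79% and 9.52% elsewhere.

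**Figure D2:**
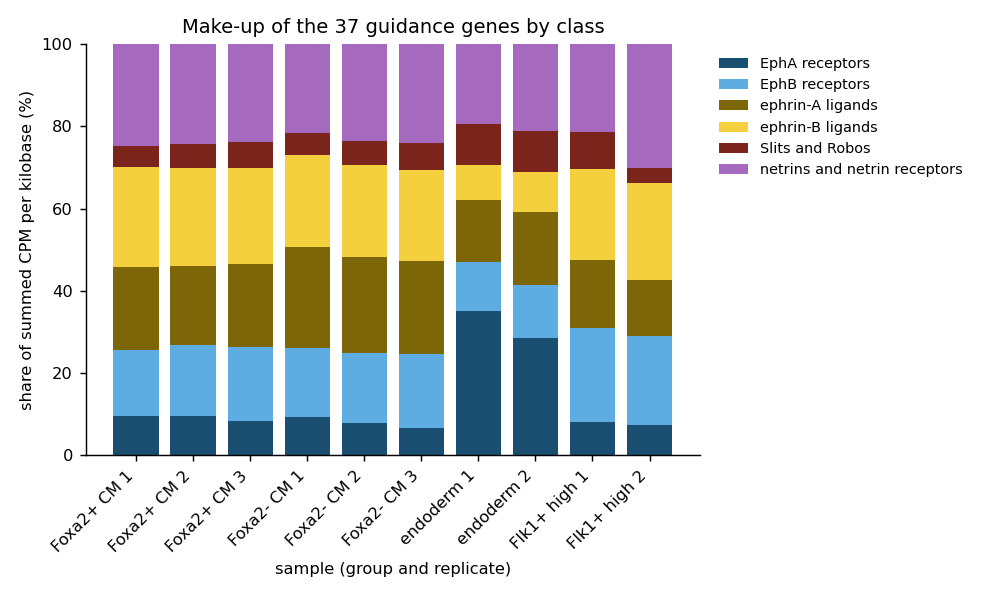
Share (%) of the summed CPM per kilobase of exon of the 37 genes held by each of the 6 classes, 1 bar per sample. EphA receptors took 28.6% and 35.1% in the endoderm samples and less than 10% in each of the other 8.

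Foxa2+ CM and Foxa2- CM came from the same sort gate and differ by the Foxa2 reporter, so their comparison asks which guidance genes go with Foxa2 in early cardiac mesoderm. Of the 33 genes tested, 2 were higher in Foxa2+ CM, against 3.81% of all 15284 genes tested, and 6 were lower, against 2.66% of all genes tested (Benjamini-Hochberg adjusted p under 0.05 over all genes, from a quasi-likelihood fit in edgeR of these 6 samples). The lower genes were the receptors Ephb2, Epha1 and Unc5a and the ligands Efna1, Efna3 and Efnb3, and the higher ones were the receptor Epha2 and the ligand Efnb2. None of the 8 differed by 4-fold. The median log2 difference was -0.25 over the 33 genes and -0.0014 over all genes. Epha5, Epha6, Epha8 and Dcc were too low to be tested.

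Ephb2, an EphB receptor that guides axons and sorts cells at tissue borders, stood at 35.5, 41.7 and 42.6 CPM in Foxa2+ CM and at 84.8, 90.4 and 94.9 in Foxa2- CM. The lowest Foxa2- CM sample lay far above the highest Foxa2+ CM sample. The log2 difference was -1.17 ± 0.087 (SE, adjusted p = 0.000988). Unc5a, a repulsive netrin receptor, stood at 4.75, 4.63 and 4.62 CPM in Foxa2+ CM and at 14.1, 11.1 and 11.1 in Foxa2- CM, again without overlap. Its log2 difference was -1.37 ± 0.156 (adjusted p = 0.00439). These 2 genes were called in each of the 6 fits that left out 1 sample and in each of the 5 other fits.

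The other 4 lower genes were less stable. Efna1, an ephrin-A ligand that binds Epha2 among other EphA receptors, stood at 12.8, 16.8 and 16.8 CPM in Foxa2+ CM and at 27.9, 31.2 and 39.2 in Foxa2- CM (log2 -1.08 ± 0.167, adjusted p = 0.0110). Efna3, its neighbour on chromosome 3, stood at 27.6, 27.6 and 28.4 against 59.0, 52.9 and 34.4 (-0.80 ± 0.175, adjusted p = 0.0364), so the third Foxa2- CM sample lay close to the Foxa2+ CM samples. Efna4, the next gene along, was not called, with a log2 difference of -0.05 and a 95% interval from -0.21 to 0.12. Efnb3, an ephrin-B ligand, stood at 67.3, 68.4 and 76.7 against 95.3, 94.5 and 114 (-0.52 ± 0.0962, adjusted p = 0.0207). Epha1 stood at 18.3, 19.8 and 15.1 against 48.3, 40.2 and 25.2 (-1.09 ± 0.224, adjusted p = 0.0292), with the lowest Foxa2- CM value again in the third sample. The groups did not overlap for any of these 4 genes.

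Epha2 and Efnb2 were the genes higher in Foxa2+ CM. Epha2, an EphA receptor of early embryonic and epithelial cells, stood at 87.4, 84.9 and 75.5 CPM in Foxa2+ CM and at 67.2, 53.2 and 48.5 in Foxa2- CM. The log2 difference was 0.56 ± 0.118 (adjusted p = 0.0330). Efnb2, the ephrin-B ligand of arterial endothelium, stood at 276, 263 and 248 CPM against 203, 224 and 200.3, a difference of 0.33 ± 0.0692 (adjusted p = 0.0327). For both genes every Foxa2+ CM sample lay above every Foxa2- CM sample, by less than the difference in Ephb2 or Unc5a.

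Unc5c, a second repulsive netrin receptor, had the largest difference of the set without passing the test. It stood at 7.31, 15.5 and 76.4 CPM in Foxa2+ CM and at 98.6, 140.3 and 292 in Foxa2- CM. All Foxa2+ CM samples were below all Foxa2- CM samples, and the spread within each group was wide. The log2 difference was -2.41 ± 0.765, with a 95% interval from -4.17 to -0.64 (adjusted p = 0.122). Without the third Foxa2+ CM sample it was -3.94 (adjusted p = 0.00822). With the replicate number as a block in the fit it was -2.74 and was called (adjusted p = 9.36e-06). The third sample was the highest of each group, and it was also the highest in most of the haematopoietic and endothelial markers. Cdh5, Tek and Pecam1, which mark endothelium, stood at 43.4, 30.6 and 26.7 CPM in the third Foxa2- CM sample and at 1.92 to 8.81 in the other Foxa2- CM samples, and at 13.6, 14.9 and 5.75 in the third Foxa2+ CM sample and 3.44 to 7.81 in the others. Of the same 8-gene list, Tal1, Runx1 and Gata1 were also highest in the third sample of each CM group, but Etv2 was lowest there (97.6 and 91.1 CPM). Lmo2 was lowest in the third Foxa2+ CM sample and highest in the third Foxa2- CM sample. The part of these markers in the Unc5c values was not tested.

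Of the 7 Slits and Robos, 0 were called between the CM groups by edgeR. DESeq2 called 4 (Slit2, Slit3, Robo2 and Robo3, all lower in Foxa2+ CM), beside 581 called lower among all 15284 genes. Slit2 stood at 3.36, 4.86 and 3.78 CPM in Foxa2+ CM against 6.19, 6.91 and 11.3 in Foxa2- CM, a log2 difference of -1.02 ± 0.275 (adjusted p = 0.0738). Robo3, an unusual Robo that in axons counters Slit repulsion, stood at 2.70, 1.97 and 1.69 against 9.47, 6.19 and 2.88, a difference of -1.54 ± 0.420 (adjusted p = 0.0768), and -1.89 (adjusted p = 0.00220) without the third Foxa2- CM sample. Robo2 stood at 0.804, 1.16 and 1.64 against 2.23, 2.54 and 4.51 (adjusted p = 0.0760). The groups did not overlap for any of these 3 genes. Robo1, the most abundant Robo, stood at 196, 233 and 219.6 against 175, 192 and 196.0, and its interval ran from 0.02 to 0.39 (adjusted p = 0.203).

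**Figure D3:**
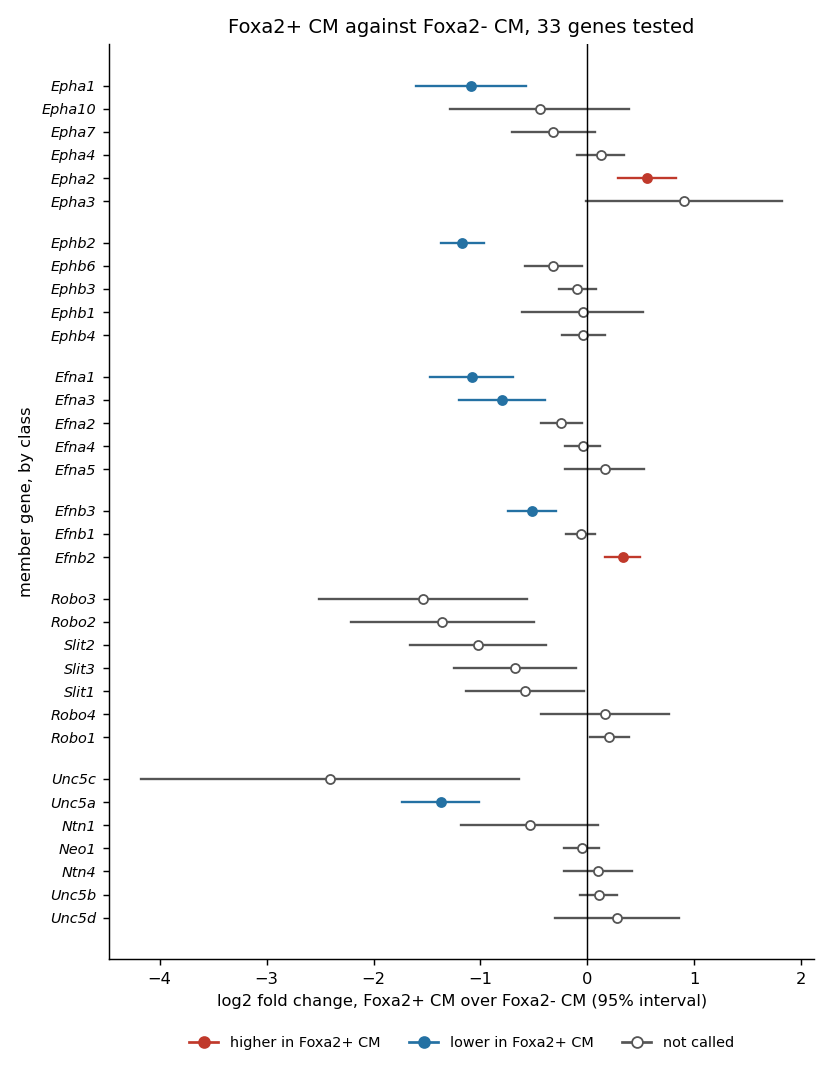
Log2 fold change of Foxa2+ CM over Foxa2- CM (horizontal axis) for the 33 genes tested, grouped by class (vertical axis), with 95% intervals from edgeR's quasi-likelihood fit on 6 samples. Filled red points were higher and filled blue points lower at an adjusted p under 0.05, open points were not called, and Unc5c has the widest interval, from -4.17 to -0.64.

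The other 19 genes tested were not called. Narrow intervals around 0 were those of Ephb4 (-0.24 to 0.17), Ephb3 (-0.27 to 0.08), Efnb1 (-0.20 to 0.07), Neo1 (-0.22 to 0.11) and Unc5b (-0.07 to 0.28). The interval of Unc5b does not cover a possible shrinking by duplicate removal. Wider ones were those of Ephb1 (-0.61 to 0.52), Unc5d (-0.31 to 0.86) and Epha3 (-0.01 to 1.82). The 2 CM groups also differed in marker lists that were not used in the sort. Summed pluripotency markers (5 genes) stood at 50.9 to 56.9 CPM in Foxa2+ CM and 81.4 to 119 in Foxa2- CM. Of these, Esrrb went the other way (means of 5.18 and 2.02 CPM, not called) and Zfp42 was level (5.77 and 5.47). Summed neural markers (6 genes) stood at 6.04 to 7.75 in Foxa2+ CM and 10.6 to 13.2 in Foxa2- CM. Tubb3 was called lower in Foxa2+ CM (means of 3.63 and 7.39 CPM, adjusted p = 0.0485) and Dcx was not called. The rest of that list was too low to be tested, with Sox1 and Pax6 slightly higher in Foxa2+ CM by mean. The part of other cells in the calls was not tested. The calls depended on the samples, since 6 of the 8 genes lost theirs in at least 1 fit that left out a sample. Of the set, 2 genes were called without Foxa2+ CM replicate 2 or without Foxa2- CM replicate 2, 3 without Foxa2+ CM replicate 1 and 5 without Foxa2- CM replicate 1. With all 10 samples in 1 model 3 genes stayed called (Ephb2, Unc5a and Efna1), while leaving out the third Foxa2+ CM sample gave 7 and the third Foxa2- CM sample 9.

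Endoderm was compared with each CM group in 1 model of all 10 samples and 16180 genes, of which 34 were of the set. The 5 comparisons made in this model share samples, so they are not independent of one another. Against Foxa2+ CM, 13 genes were higher in endoderm (18.3% of all genes tested) and 7 lower (16.7% of all genes tested). Against Foxa2- CM, 9 were higher (16.1% of all genes tested) and 10 lower (14.0% of all genes tested). Endoderm had more RNA of EphA receptors, of all 3 Slits and of Ntn1, and less of the ephrin-B ligands, Robo1, Ntn4, Unc5c and Unc5d. Median log2 differences over the 34 genes were 0.16 and -0.06, beside 0.0072 and 0.0050 over all genes.

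Ntn1 and Unc5c, a netrin and one of its repulsive receptors, differed most and in opposite directions. Ntn1 stood at 200.4 and 252 CPM in endoderm, at 1.83, 2.66 and 1.297 in Foxa2+ CM and at 3.03, 2.70 and 2.71 in Foxa2- CM. Both endoderm samples were thus far above every CM sample, by 6.87 ± 0.477 over Foxa2+ CM (log2, adjusted p = 1.17e-05) and 6.32 ± 0.461 over Foxa2- CM (adjusted p = 1.9e-05). Unc5c stood at 1.02 and 0.586 CPM in endoderm, below all CM values given above. Its log2 difference was -7.78 ± 1.39 against Foxa2- CM (adjusted p = 0.00270) and -5.38 ± 1.43 against the widely spread Foxa2+ CM samples (adjusted p = 0.0164), a call that was lost without endoderm replicate 1 (adjusted p = 0.0983) or replicate 2 (adjusted p = 0.107). Unc5a, in contrast, stood at 7.92 and 13.2 CPM in endoderm, above Foxa2+ CM by 1.18 ± 0.256 (adjusted p = 0.00627, and 0.0738 without endoderm replicate 2) and overlapping Foxa2- CM.

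All 3 Slit ligands were higher in endoderm. Slit2 stood at 122 and 100.2 CPM, against at most 11.3 in any CM sample, with log2 differences of 4.79 ± 0.592 over Foxa2+ CM (adjusted p = 0.000306) and 3.76 ± 0.561 over Foxa2- CM (adjusted p = 0.00101). Slit1 stood at 19.8 and 58.1 CPM against 3.58, 2.95 and 2.37 in Foxa2+ CM and 5.26, 4.604 and 3.50 in Foxa2- CM. The 2 endoderm samples differed widely from each other, and both were above every CM sample, by 3.72 ± 0.494 (adjusted p = 0.000450) and 3.13 ± 0.481 (adjusted p = 0.00119), or by 2.72 and 2.147 without endoderm replicate 2. Slit3 stood at 201 and 179 CPM against 25.9, 33.6 and 46.3 in Foxa2+ CM and 44.0, 51.3 and 74.1 in Foxa2- CM, higher by 2.43 ± 0.404 (adjusted p = 0.00155) and 1.75 ± 0.397 (adjusted p = 0.00933, and 0.0626 without endoderm replicate 1).

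Their Robo receptors did not follow 1 direction. Robo1 stood at 93.6 and 124 CPM, below every CM sample, with log2 differences of -0.99 ± 0.181 from Foxa2+ CM (adjusted p = 0.00262) and -0.79 ± 0.180 from Foxa2- CM (adjusted p = 0.00966, and 0.0863 without endoderm replicate 1). Robo2 stood at 0.932 and 0.251 CPM, close to the floor, below Foxa2- CM by a log2 difference of -2.41 ± 0.570 (adjusted p = 0.0113, and 0.0912 without endoderm replicate 2) and overlapping Foxa2+ CM. Robo3 stood at 4.75 and 18.6 CPM, and its call over Foxa2+ CM (2.47 ± 0.756, adjusted p = 0.0305) was lost without any 1 of the Foxa2+ CM samples (adjusted p between 0.0628 and 0.0901) or without endoderm replicate 2 (1.15, adjusted p = 0.359).

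**Figure D4:**
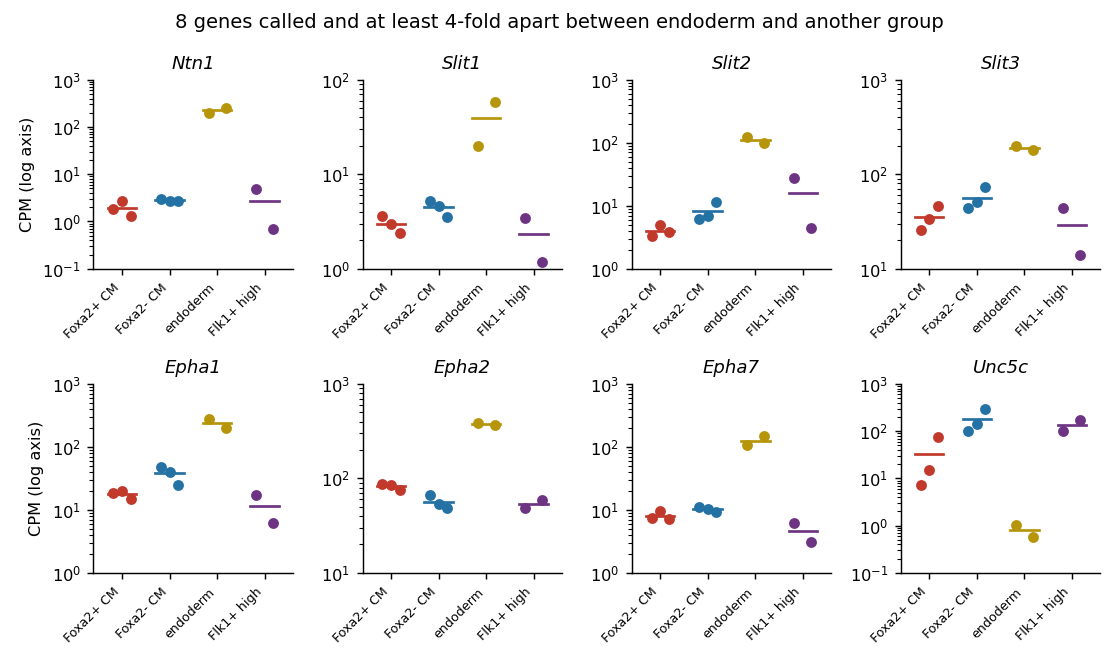
CPM (log axis) of 8 genes in each sample, by group, with a bar at the group mean. Points are samples, 3 in each CM group and 2 each in endoderm and Flk1+ high. Ntn1, the Slits, Epha1, Epha2 and Epha7 were highest in both endoderm samples, and Unc5c was lowest there, at 1.02 and 0.586 CPM.

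Against both CM groups, 4 EphA receptors were higher in endoderm, and of the EphB receptors 1 was called against each. Epha2 stood at 386 and 368 CPM, higher by 2.19 ± 0.133 than Foxa2+ CM (log2, adjusted p = 6.44e-06) and by 2.74 ± 0.136 than Foxa2- CM (adjusted p = 2.91e-06). Epha1, found on epithelial cells, stood at 281 and 200.4 CPM, higher by 3.76 ± 0.365 (adjusted p = 7.84e-05) and 2.67 ± 0.350 (adjusted p = 0.000500). Epha7 stood at 106 and 147 CPM against 7.46, 9.72 and 7.28 in Foxa2+ CM and 11.1, 10.3 and 9.14 in Foxa2- CM, higher by 3.95 ± 0.255 (adjusted p = 8.15e-06) and 3.63 ± 0.251 (adjusted p = 1.42e-05). For these 3 receptors both endoderm samples were at least 4 times every CM sample. Epha8 was called higher too, but at a mean of 2.07 CPM, against 0.514 and 0.638 in the CM groups. Epha4 was not called, and its endoderm values differed from each other, at 42.4 and 81.1 CPM around CM values of 55.8 to 70.0. Without replicate 2 it was lower than in Foxa2+ CM (-0.69, adjusted p = 0.0167) and in Foxa2- CM (-0.55, adjusted p = 0.0441). Of the EphB receptors, Ephb2 was higher than in Foxa2+ CM (88.0 and 122 CPM, 1.40 ± 0.260, adjusted p = 0.00292) and not called against Foxa2- CM (0.22, interval -0.36 to 0.81), and Ephb4 was lower than in Foxa2- CM by a small margin (-0.29 ± 0.0945, adjusted p = 0.0421) that was lost in 5 of 10 fits leaving out 1 sample, of which the highest adjusted p was 0.229, without endoderm replicate 1.

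The ephrin ligands split by class. All 3 ephrin-B genes were lower in endoderm than in either CM group. Efnb1 stood at 18.7 and 49.3 CPM against 77.4 to 87.9 in CM, a log2 difference of -1.24 ± 0.299 from Foxa2+ CM (adjusted p = 0.0106) and -1.30 ± 0.299 from Foxa2- CM (adjusted p = 0.00985). Over the fits leaving out 1 sample the first ran from -2.12 to -0.74 and the second from -2.18 to -0.80, the larger differences being those without endoderm replicate 2. Efnb2 stood at 176 and 149.5 CPM and Efnb3 at 34.5 and 51.6, both under every CM sample. Their log2 differences were -0.69 ± 0.101 and -0.72 ± 0.162 from Foxa2+ CM (adjusted p = 0.00078 and 0.00773) and -0.36 ± 0.100 and -1.23 ± 0.164 from Foxa2- CM (adjusted p = 0.0229 and 0.000543). The Efnb2 call against Foxa2- CM was lost without endoderm replicate 2 (adjusted p = 0.146) or Foxa2- CM replicate 2 (adjusted p = 0.0522), and the Efnb3 call against Foxa2+ CM without endoderm replicate 1 (adjusted p = 0.0548). Of the 5 ephrin-A genes, Efna2 was higher than in Foxa2+ CM (0.62 ± 0.185, adjusted p = 0.0280, lost in 5 fits leaving out 1 sample, with 0.328 without endoderm replicate 2), and Efna1 was lower than in Foxa2- CM, at 12.5 and 18.3 CPM (-1.09 ± 0.221, adjusted p = 0.00539, and 0.0579 without endoderm replicate 1). Efna3, Efna4 and Efna5 were not called against either group.

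Ntn4, a netrin that binds laminin and is found in basement membranes, went the other way from Ntn1. It stood at 3.07 and 4.10 CPM in endoderm, 10.01, 12.7 and 11.96 in Foxa2+ CM and 11.02, 10.8 and 10.6 in Foxa2- CM, lower by log2 differences of -1.68 ± 0.283 (adjusted p = 0.00167) and -1.59 ± 0.283 (adjusted p = 0.00273). Unc5d stood at 4.10 and 5.60 CPM in endoderm, below 13.8, 19.0 and 9.76 in Foxa2+ CM (-1.55 ± 0.374, adjusted p = 0.0106, and 0.0808 without endoderm replicate 1) and 14.1, 11.7 and 9.54 in Foxa2- CM (-1.27 ± 0.372, adjusted p = 0.0287), the second call being lost in 4 fits without an endoderm or Foxa2- CM sample (adjusted p up to 0.162). Neo1 was higher in endoderm, by 0.62 ± 0.164 over Foxa2+ CM (adjusted p = 0.0159) and 0.57 ± 0.165 over Foxa2- CM (adjusted p = 0.0282), and these calls were lost in 2 and 4 fits leaving out 1 sample, including those without endoderm replicate 2 (adjusted p = 0.140 and 0.199). Summed pluripotency markers stood at 373 and 370.3 CPM in endoderm against 50.9 to 119 in CM, led by Nanog, Pou5f1 and Sox2. Of this list, Zfp42 was lower than in Foxa2+ CM (log2 -1.42, adjusted p = 0.00176) and Foxa2- CM (-1.34, adjusted p = 0.00289). Esrrb was not called against either CM group. Summed neural markers stood at 37.1 and 42.9 CPM in endoderm against 6.04 to 13.2 in CM. The part of either list in the endoderm results was not tested.

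Flk1+ high cells came from the same kind of culture as the CM groups. Against Foxa2+ CM, 2 of the 34 genes were higher (11.6% of all genes tested) and 14 lower (11.2% of all genes tested). Against Foxa2- CM, 1 was higher (11.3% of all genes tested) and 17 lower (10.3% of all genes tested). The lower genes included members of all 6 classes. Fits of only the 2 groups compared called 13 genes of the set against either CM group, beside 2954 of 15538 genes against Foxa2+ CM and 2159 of 15508 against Foxa2- CM. Median log2 differences were -0.59 and -0.96 over the 34 genes, beside 0.028 and 0.018 over all genes. The 2 Flk1+ high samples differed from each other more for these genes than for most. The ratio of the higher to the lower sample had a median of 1.72 over the 29 genes of the set with at least 10 counts in both samples, against 1.16 over all genes so counted, and 11 of the 29 differed by over 2-fold. Replicate 1 was the higher for 20 of the 29.

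Robo4, the Robo of endothelial cells, was higher in Flk1+ high. It stood at 19.9 and 5.51 CPM there, at 1.90, 2.95 and 2.99 in Foxa2+ CM and at 1.92, 2.302 and 2.82 in Foxa2- CM. Both samples were above every CM sample, but replicate 1 was over 3 times replicate 2. The log2 difference was 2.28 ± 0.478 over Foxa2+ CM (adjusted p = 0.00895) and 2.43 ± 0.483 over Foxa2- CM (adjusted p = 0.00704). Without replicate 1 the first of these was 1.07 (adjusted p = 0.0725). Of the endothelial markers, Pecam1 was lower in replicate 1 than in replicate 2, at 46.7 and 138 CPM, and so were Cdh5 at 158 and 275 and Tek at 135 and 245, so Robo4 did not rank the 2 samples as they did. Slit2, a Robo ligand, was the other gene called higher than in Foxa2+ CM (1.99 ± 0.579, adjusted p = 0.0352), at 27.2 and 4.49 CPM. Its lower sample overlapped Foxa2+ CM, and the call was lost in 8 of 10 fits leaving out 1 sample, with a value of 0.16 without Flk1+ high replicate 1 (adjusted p = 0.793).

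Of the netrin class, 3 genes were lower in Flk1+ high than in both CM groups. Unc5a stood at 1.00 and 0.630 CPM in Flk1+ high, below every CM sample. Its log2 difference was -2.48 ± 0.324 from Foxa2+ CM (adjusted p = 0.00100) and -3.86 ± 0.328 from Foxa2- CM (adjusted p = 0.00016). Unc5d stood at 3.26 and 1.58 CPM (-2.53 ± 0.396, adjusted p = 0.00225, and -2.26 ± 0.394, adjusted p = 0.00382). Ntn4 stood at 1.82 and 3.54 CPM (-2.12 ± 0.289, adjusted p = 0.00120, and -2.02 ± 0.289, adjusted p = 0.00149). All 3 were below every CM sample in both Flk1+ high samples. Unc5c, in contrast, stood at 101 and 174 CPM, within the Foxa2- CM range and above Foxa2+ CM (2.04 ± 0.781, adjusted p = 0.0911, and 3.57 with adjusted p = 0.00480 without the third Foxa2+ CM sample). Ntn1 stood at 4.83 and 0.709 CPM on either side of the CM values and was not called.

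**Figure D5:**
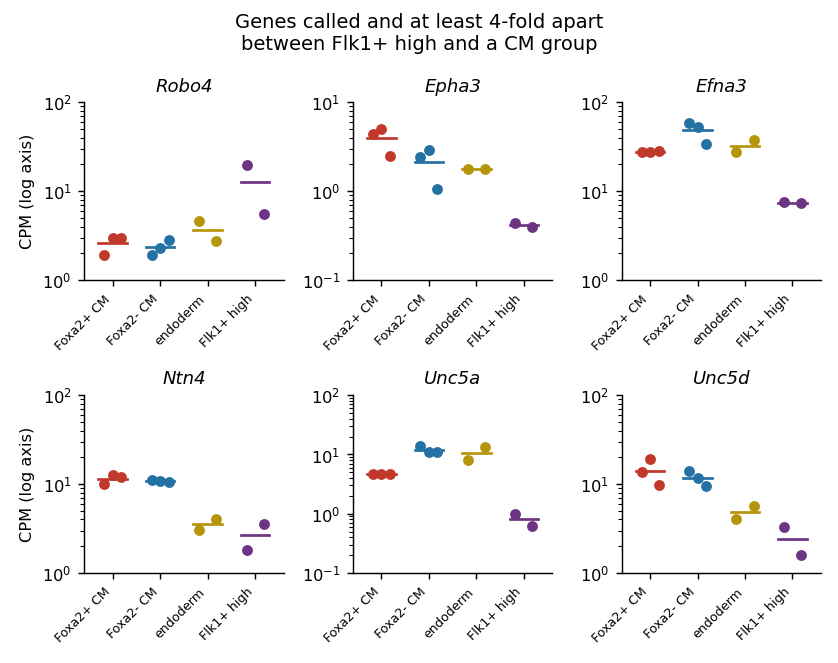
CPM (log axis) in each sample, by group, with a bar at the group mean, for the 6 genes called and at least 4-fold apart between Flk1+ high (n = 2) and a CM group (n = 3 each). Robo4 was higher in Flk1+ high with values of 19.9 and 5.51 CPM, and the other 5 were below every CM sample in both Flk1+ high samples.

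Of the 20 Eph receptors and ephrins tested, 10 were lower in Flk1+ high than in Foxa2+ CM and 13 than in Foxa2- CM. Efna3 stood at 7.47 and 7.40 CPM, below every CM sample (-1.90 ± 0.238, adjusted p = 0.000814, against Foxa2+ CM and -2.71 ± 0.244, adjusted p = 0.000203, against Foxa2- CM). Efna4, beside it on the chromosome, stood at 25.2 and 21.8 CPM (-0.97 ± 0.107, adjusted p = 0.000462, and -1.02 ± 0.107, adjusted p = 0.000446). Efna1, the third of these neighbours, stood at 10.4 and 11.4 CPM and was called against Foxa2- CM only (-1.59 ± 0.226, adjusted p = 0.00147). Epha3 stood at 0.439 and 0.394 CPM, near the floor, against 4.39, 4.98 and 2.48 in Foxa2+ CM and 2.41, 2.94 and 1.07 in Foxa2- CM. Its log2 difference was -3.21 ± 0.537 from Foxa2+ CM (adjusted p = 0.00309) and -2.31 ± 0.547 from Foxa2- CM (adjusted p = 0.0159), the second being lost without Flk1+ high replicate 1 (adjusted p = 0.0623) or replicate 2 (adjusted p = 0.0687).

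Further receptors called lower against both CM groups were Epha4, Ephb3 and Ephb6. Epha4 stood at 33.4 and 29.9 CPM (-1.09 ± 0.230, adjusted p = 0.00931, and -0.96 ± 0.230, adjusted p = 0.0164, the second being 0.0800 without Flk1+ high replicate 2). Ephb3 was lower, with means of 110.2 and 118 CPM in the CM groups and 43.2 ± 8.14 (SD, n = 2), with log2 differences of -1.36 ± 0.170 (adjusted p = 0.000816) and -1.45 ± 0.170 (adjusted p = 0.000657). Ephb6, which lacks kinase activity, stood at 16.4, 20.7 and 19.6 CPM in Foxa2+ CM, 25.0, 22.4 and 23.7 in Foxa2- CM and 11.4 and 3.39 in Flk1+ high. It was called against both CM groups (-1.34 ± 0.377, adjusted p = 0.0316, and -1.66 ± 0.381, adjusted p = 0.0138), and the first call was lost in 4 fits leaving out 1 sample (adjusted p up to 0.0861, without Foxa2+ CM replicate 2). Efnb1 and Efnb3 were lower as well, at a mean of 34.8 ± 0.967 CPM (SD, n = 2) and at 41.7 and 38.4 CPM, with log2 differences of -1.21 ± 0.296 and -0.82 ± 0.162 from Foxa2+ CM (adjusted p = 0.0173 and 0.00660) and -1.28 ± 0.297 and -1.34 ± 0.164 from Foxa2- CM (adjusted p = 0.0148 and 0.000783). The Efnb1 calls were lost without either Flk1+ high sample (adjusted p between 0.0516 and 0.0626). Efnb2 and Ephb4, the ligand and receptor of arterial and venous endothelium, were not called against either CM group, with Efnb2 at 212 and 252 CPM. The intervals against Foxa2+ CM and Foxa2- CM ran from -0.40 to 0.05 and from -0.07 to 0.37 for Efnb2, and from 0.04 to 0.46 and from 0.00 to 0.42 for Ephb4. Robo1 stood at 145 and 93.7 CPM and was lower than in Foxa2+ CM (-0.85 ± 0.179, adjusted p = 0.00890) and Foxa2- CM (-0.65 ± 0.178, adjusted p = 0.0292), and the second call was lost in 4 fits, with -0.39 (adjusted p = 0.137) without Flk1+ high replicate 2. Robo2 stood at 1.63 and 1.18 CPM and Robo3 at 5.08 and 0.788, and neither was called.

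Some genes were called against 1 CM group only, and those differences between comparisons were not tested. Epha2 was lower than in Foxa2+ CM (48.2 and 58.6 CPM, -0.63 ± 0.141, adjusted p = 0.0116, and 0.0691 without Flk1+ high replicate 1) and overlapped Foxa2- CM. Epha1, Epha7, Ephb2 and Efna2 were called against Foxa2- CM, and Efna5 against Foxa2+ CM. Efna5 stood at 12.7 and 7.01 CPM (-0.98 ± 0.273, adjusted p = 0.0302) and Efna2 at 27.9 and 19.8 (-0.82 ± 0.193, adjusted p = 0.0158), and both calls were lost without Flk1+ high replicate 2 (adjusted p = 0.138 and 0.0823). Ephb2 stood at 67.1 and 31.3 CPM, and its call (-0.87 ± 0.270, adjusted p = 0.0474) was lost in 9 of 10 fits leaving out 1 sample, the highest adjusted p being 0.145 without Flk1+ high replicate 2. Epha1 stood at 17.004 and 6.30 CPM (-1.68 ± 0.395, adjusted p = 0.0156) and Epha7 at 6.15 and 3.07 (-1.12 ± 0.280, adjusted p = 0.0197), and both calls were lost without Flk1+ high replicate 2 (adjusted p = 0.0525 and 0.0791). Ephb1 stood at 19.6 and 4.25 CPM and was not called with both samples, but was without Flk1+ high replicate 2 (2.04, adjusted p = 0.00216, over Foxa2+ CM and 2.01, adjusted p = 0.00260, over Foxa2- CM). The neural markers also differed between the 2 samples, at summed levels of 25.9 and 5.67 CPM, most of it Tubb3 at 22.9 and 4.17, and their part in these values was not tested.

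Between endoderm and Flk1+ high 22 of the 34 genes were called. Of these, 18 were higher in endoderm (16.4% of all genes tested) and 4 were lower (16.2% of all genes tested), with 12 called genes differing by at least 4-fold. Median log2 differences were 1.06 over the 34 genes and -0.0042 over all genes. The 4 lower genes were Ephb4, Efnb2, Robo4 and Unc5c. Of the 9 EphA receptors 6 were higher, and all 3 Slits were. With only these 4 samples in the fit 13 genes were called, 11 higher and 2 lower, beside 2675 of 14977 genes. Fits of only the 2 groups compared called 24 for endoderm against Foxa2+ CM (6088 of 15378 genes) and 20 against Foxa2- CM (4484 of 15285 genes).

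Ntn1 was higher in endoderm by 6.28 ± 0.549 on the log2 scale (adjusted p = 5.37e-05) and Unc5c lower by a log2 difference of -7.42 ± 1.42 (adjusted p = 0.00336). Epha7 (4.76 ± 0.316, adjusted p = 1.3e-05), Epha1 (4.35 ± 0.445, adjusted p = 0.00012) and Epha2 (2.82 ± 0.158, adjusted p = 5.13e-06) were higher in endoderm. So were Slit1 (4.04 ± 0.593, adjusted p = 0.000868), Slit2 (2.79 ± 0.624, adjusted p = 0.00755) and Slit3 (2.71 ± 0.472, adjusted p = 0.00212). In Flk1+ high Slit1 stood at 3.45 and 1.18 CPM and Slit3 at 43.8 and 13.9, so that replicate 1 was the higher for all 3 Slits. Without that sample the log2 differences were 8.30 for Ntn1, 5.03 for Slit1, 4.62 for Slit2 and 3.77 for Slit3, and without Flk1+ high replicate 2 they were 5.55 for Ntn1, 2.03 for Slit2 and 2.12 for Slit3. Slit1 was at 3.08 without endoderm replicate 2, and these calls were kept. With only the 4 samples of these groups in the fit the calls of Slit2 (adjusted p = 0.0724) and Ephb6 (adjusted p = 0.0562) were lost. Unc5a was higher by 3.66 ± 0.341 (adjusted p = 7.28e-05) in endoderm, whose samples overlapped Foxa2- CM. Ephb6, at 36.0 and 37.2 CPM in endoderm, was higher by 2.29 ± 0.409 (adjusted p = 0.00241, and 3.43 without Flk1+ high replicate 1), Efna3, at 27.5 and 37.3 CPM, by 2.12 ± 0.253 (adjusted p = 0.000283), and Epha3, at 1.77 and 1.76 CPM, by 2.05 ± 0.597 (adjusted p = 0.0257). The Epha3 call was lost without any 1 of these 4 samples (adjusted p between 0.0753 and 0.0894). Robo4 stood at 4.57 and 2.76 CPM in endoderm, lower by a log2 difference of -1.80 ± 0.545 (adjusted p = 0.0302), a call lost without either endoderm sample or Flk1+ high replicate 1 (adjusted p between 0.0636 and 0.302).

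Set side by side, ligands and receptors did not keep a common pattern across the 4 groups. For netrin, Ntn1 was high where Unc5c was lowest (endoderm) and low where Unc5c was high (Foxa2- CM and Flk1+ high). In Foxa2+ CM Ntn1 was low as well, at 1.83, 2.66 and 1.297 CPM. Unc5c there, at 7.31, 15.5 and 76.4 CPM, was below every Foxa2- CM and Flk1+ high sample. The opposite levels of Ntn1 and Unc5c therefore rested on endoderm. Unc5b and Neo1 stayed at 191 CPM or more and 82.2 CPM or more in all samples. For Slit and Robo, the Slits were high in endoderm, where Robo1 had its lowest group mean (109 ± 21.4 CPM) but Flk1+ high lay within its spread (119.5 ± 36.5). For the A class, endoderm combined the highest EphA receptor levels with summed ephrin-A levels of 72.9 and 96.5 CPM per kilobase in its 2 samples, against means of 70.1 in Foxa2+ CM, 91.8 in Foxa2- CM and 37.3 in Flk1+ high. For the B class, the summed ephrin-B ligands had their highest levels in CM, at 83.8 and 86.7 CPM per kilobase, and the summed EphB receptors ran only from 55.4 to 67.5.

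Further genes of the pathways, adaptors and coreceptors that act with these ligands and receptors, were taken from a list of 43, of which 41 were tested. Ntn3 was not analysed here. Between the CM groups 5 were higher in Foxa2+ CM (3.81% of all genes tested) and 2 lower (2.66%). Dscam, a netrin coreceptor, was higher by 1.21 ± 0.159 (adjusted p = 0.00612), Trim9, a ubiquitin ligase that binds Dcc, by 1.20 ± 0.149 (adjusted p = 0.00498) and Flrt3, a partner of Unc5 receptors, by 0.59 ± 0.0862 (adjusted p = 0.00911). Trim67, the close relative of Trim9, was lower, at 1.90, 4.86 and 1.35 CPM in Foxa2+ CM against 25.4, 33.7 and 26.1 in Foxa2- CM (-3.37 ± 0.405, adjusted p = 0.00453), and so was Flrt1 (-1.35 ± 0.320, adjusted p = 0.0482). Of these 7 genes 6 belonged to the 11 tested of the netrin part of the list, and the other was Adam10, a protease that cuts ephrins, named after its values were seen.

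In endoderm, 7 of the 41 were higher and 13 lower than in Foxa2+ CM (18.3% and 16.7% of all genes tested), and 8 higher and 7 lower than in Foxa2- CM (16.1% and 14.0%). Trim67 was highest there, at 133 and 213 CPM, above Foxa2+ CM by 5.98 ± 0.431 (adjusted p = 1.44e-05) and above Foxa2- CM by 2.61 ± 0.362 (adjusted p = 0.000662). Dscam (-4.82 ± 0.628, adjusted p = 0.000409), Trim9 (-3.83 ± 0.416, adjusted p = 0.000149) and Kalrn, an exchange factor that acts below EphB receptors (-2.57 ± 0.125, adjusted p = 2.22e-06), were lower than in Foxa2+ CM. In Flk1+ high, 5 were higher and 12 lower than in Foxa2+ CM (11.6% and 11.2% of all genes tested), and 8 higher and 9 lower than in Foxa2- CM (11.3% and 10.3%). Of the netrin part of the list, 6 of 11 were lower than in Foxa2+ CM and 7 of 11 than in Foxa2- CM. Trim9 (-3.85 ± 0.409, adjusted p = 0.000399), Flrt3 (-2.57 ± 0.317, adjusted p = 0.000762) and Rgma, a neogenin ligand (-2.18 ± 0.425, adjusted p = 0.00625), were lower than in Foxa2+ CM. Trim67 (-4.36 ± 0.522, adjusted p = 0.000742), Flrt1 (-3.43 ± 0.532, adjusted p = 0.00220) and Trim9 (-2.65 ± 0.401, adjusted p = 0.00199) were lower than in Foxa2- CM. Vav3, an exchange factor recruited by Eph receptors, stood at 66.8 and 125 CPM there against 8.24 to 24.8 in CM (2.22 ± 0.434, adjusted p = 0.00631, and 2.87 ± 0.443, adjusted p = 0.00218), and the kinase Fyn was higher by 1.38 ± 0.122 and 1.40 ± 0.122 (adjusted p = 0.000159 and 0.00018). Between endoderm and Flk1+ high, 10 were higher and 10 lower in endoderm (16.4% and 16.2% of all genes tested), with Trim67 (6.97 ± 0.559, adjusted p = 3.62e-05) and Vav3 (-4.63 ± 0.584, adjusted p = 0.000381) at the ends.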

How the data were processed

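RNA was sequenced from 10 sorted samples in 4 groups, taken from the labels. Per the labels and the study's methods, the authors aligned reads to mm10 with STAR 2.5.0a, removed duplicates with Picard and counted reads per gene with HTSeq 0.6.0, and they deposited raw counts without normalization. The strand setting is not given in the sources used here. Rows that name no gene (19.5% to 27.8% of each sample) were left out. Duplicate removal caps the counts of short, abundant genes, and the highest density here was 1.11 counts per exonic base (Unc5b).

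Counts were tested with edgeR 4.0.16 in R 4.3.3 (TMM scaling, filterByExpr, quasi-likelihood test, Benjamini-Hochberg adjustment over all genes tested, threshold 0.05), with the 6 CM samples for the CM comparison and all 10 samples in 1 model for the other 5. The SE is the log2 difference divided by the square root of F, and intervals are 95%. The script was tested on simulated data. Levels are CPM after TMM scaling, also divided by union exon length from GENCODE M21. Figures were drawn with matplotlib 3.10.9 in Python 3.11.15. Alternatives were DESeq2 1.42.0 and its size factors, no filter on low counts, the replicate number as a block, other samples in the fit, a 2-fold limit and leaving out each sample.

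All members are accounted for. Values in every sample are given for those called between the CM groups, those called and at least 4-fold apart in another comparison, and the class leaders per kilobase. Of the other pathway genes, up to 3 with the largest change in each direction among those called were named. The members, lists and tests were chosen with earlier results of these data known.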

Additional observations from a re-analysis of the deposited data

How the results depend on the processing

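Between the CM groups 8 genes were called. That number became 15 with the replicate number as a block, 3 with all 10 samples in 1 model, 4 with a 2-fold limit, 12 with DESeq2 and 12 without a filter on low counts, and 2 to 9 when 1 sample was left out. Over all 15284 genes the same comparison gave 990 calls, 2556 with the block, 460 with the 2-fold limit and 1340 with DESeq2. It gave 288 with all 10 samples in 1 model, 1210 of 25526 genes without the filter and 234 to 1701 with 1 sample left out. Same-numbered CM samples correlated in their deviations from the group means by 0.548, 0.0976 and 0.643. Samples 1 and 3 of opposite groups correlated by -0.626 and -0.553. The second samples of the 2 groups did not correlate best with each other. The labels state no pairing, so the main fit used none, and any spread shared by same-numbered samples stayed in its error. With the block the other 5 comparisons called 21, 19, 17, 18 and 22 genes of the set, beside 5471, 4616, 3813, 3557 and 5434 of all 16180 genes. Unc5c was then called between the CM groups (-2.74, adjusted p = 9.36e-06).

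Endoderm against Flk1+ high gave 22 calls and 13 with only these 2 groups in the fit. Leaving out 1 sample gave 16 to 22 calls for endoderm against Foxa2+ CM, 14 to 21 against Foxa2- CM, 12 to 18 for Flk1+ high against Foxa2+ CM, 13 to 20 against Foxa2- CM and 17 to 23 for endoderm against Flk1+ high. Over all genes, endoderm against Flk1+ high fell from 5276 to 2675 calls and Flk1+ high against Foxa2- CM from 3492 to 2159 with only the groups compared. DESeq2 size factors left the number of calls in the set as it was in all 6 comparisons. The direction of Epha4 turned for endoderm against Foxa2- CM without endoderm replicate 2 (-0.55, adjusted p = 0.0441, and 0.37 without replicate 1), of Ntn1 for Flk1+ high against Foxa2- CM without Flk1+ high replicate 1 (-1.98, adjusted p = 0.0196, and 0.76 without replicate 2) and of Efnb1 for endoderm against Flk1+ high without endoderm replicate 1 (0.49, adjusted p = 0.00967, and -0.89 without replicate 2). None of these 3 was called with all samples, and the cause of the changes was not tested. Groups of 2 or 3 samples and counts near the floor (Epha3, Robo2) limit the precision.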
